A study of Mus musculus with 18 samples.

Results

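RNA of tumour-free mammary glands was compared between mice without Cip2a and wild type mice at the end of a DMBA experiment: 3 glands of Cip2a-/- mice were set against 3 glands of WT mice. These 6 libraries were taken from the 18 of the study by the genotype and time point in their labels, and all 15482 genes that passed a low-count filter, of 23337 in the count table, were tested.

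The 2 groups differed by genotype alone, as far as the labels tell. Both were on a mixed C57BL/6Jx129 background, and both had received DMBA, a carcinogen also known as 7,12-dimethylbenz[a]anthracene, in 6 weekly doses of 1 mg in oil through a stomach tube, the first at 12 to 14 weeks of age. Each gland was taken when its mouse had to be killed for a DMBA tumour somewhere in the body, and the gland itself was free of tumour. Lymph nodes are stated to have been left out when the whole gland was collected. The other 12 libraries are 3 Cip2a-/- and 3 WT glands of untreated mice and, 2 weeks after dosing ended, another 3 Cip2a-/- and 3 WT glands, and they enter only where stated. The age at the endpoint, the weeks between the last dose and the endpoint, the tissue that carried the tumour and the way the Cip2a allele was made are not known from the labels, so a difference in any of them between the genotypes cannot be told apart from the genotype.

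CIP2A (cellular inhibitor of PP2A) binds and restrains protein phosphatase 2A, the phosphatase that removes phosphates from many proteins of growth signalling, and one effect known from cancer cells is that the Myc protein is kept from degradation. CIP2A also acts with TOPBP1 to hold broken chromosomes together in mitosis. The mammary gland is a tree of epithelial ducts, with an inner luminal and an outer basal layer, set in a fat pad with fibroblasts, vessels and immune cells. DMBA is made reactive by cytochrome P450 enzymes that the aryl hydrocarbon receptor induces, and the products damage DNA.

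Total counts were between 17046239 and 20416505 reads in the Cip2a-/- libraries and between 17598320 and 22981594 reads in the WT libraries. Values below are CPM (read counts scaled to 1 common library size, with TMM factors), and differences are log2 fold changes of Cip2a-/- over WT with their standard error (SE) from 1 edgeR quasi-likelihood fit to all 18 libraries. WT library 1 stood apart from the other 5 libraries: it lay at 165.7 on the first principal component, which held 56.1% of the variance, while the others lay between -61.2 and 28.9. WT library 2 was closer to the 3 Cip2a-/- libraries (Pearson r of log2 CPM across genes 0.949, 0.951 and 0.950) than to WT library 1 (0.763) or WT library 3 (0.898). The endpoint glands were also the most uneven of the study, with a median SD per gene of 0.415 log2 units among the Cip2a-/- libraries and 0.491 among the WT libraries, against 0.187 to 0.30 in the 4 other groups. List counts, list medians and genes that moved by over 1.5 times at the endpoint when WT library 1 was left out are therefore also given without it. Among the other 12 libraries, WT untreated library 3 stood apart: it had 16 reads of Xist, which is transcribed from the inactive X chromosome of females, against 4532 to 14615 in the other 17 libraries, and 26 reads of 4 Y chromosome genes, against 0. The labels give no sex; results that use untreated glands are also given without that library, a choice made after seeing the data.

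Cip2a was the one gene called at an adjusted p under 0.05, which is 0.00646% of the genes tested. The table lists it under its older symbol C330027C09Rik, on chromosome 16 from 48994157 to 49019716 (mm10). It had 0 reads in each of the 3 Cip2a-/- libraries, against 3.23, 4.88 and 1.58 CPM in the WT libraries, 202 reads in all. The groups did not overlap, the level in Cip2a-/- glands was at least 66.4-fold lower with a floor of 3 reads over the group, and the adjusted p was 0.0276 by edgeR's quasi-likelihood test. With 1 library left out the call was lost for 4 of 6: the adjusted p was 0.153, 0.0718 and 0.143 without Cip2a-/- library 1, 2 or 3 and 0.0903 without WT library 1, with the same direction each time. No other gene passed, so no gene below is called, and each has an adjusted p of 0.458 or more by edgeR's quasi-likelihood test.

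Before adjustment, 627 genes were higher in Cip2a-/- glands at p under 0.05 (4.05% of the genes tested) and 1032 were lower (6.67%). The spread behind these p-values was estimated over all 18 libraries, though the endpoint glands were the most uneven. With the 6 endpoint libraries alone, 104 genes were higher and 313 lower at that p, of 14645 tested. The 3 Cip2a-/- values lay above all 3 WT values for 350 genes (2.26%) and below them for 468 genes (3.02%). Without WT library 1 the counts at p under 0.05 were 281 higher (1.82%) and 285 lower (1.84%). Counts for gene groups below are to be read against these shares. The median log2 fold change of all genes was -0.02 with all libraries and 0.00 without WT library 1. Of the 15482 genes, 8101 were below 0 with all libraries and 7676 without WT library 1.

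Beside Cip2a itself, its neighbour Dzip3 had the smallest p of the genes lower in Cip2a-/- glands (edgeR quasi-likelihood test, unadjusted p = 0.000616). Dzip3 encodes an RNA-binding ubiquitin ligase, and its gene record ends 15 bases from where that of Cip2a begins in the RefSeq annotation, on the opposite strand, so the 2 genes are read away from each other out of 1 shared stretch. The promoter of Cip2a is shown because both genes share it: it spans chr16:48993938-48994237 on the + strand of GRCm38 (RefSeq), from 250 bases before to 50 bases after a Cip2a start site at 48994188, which lies inside the gene record. Capitals mark the 175 bases that also belong to a promoter window of Dzip3.
Cip2a promoter: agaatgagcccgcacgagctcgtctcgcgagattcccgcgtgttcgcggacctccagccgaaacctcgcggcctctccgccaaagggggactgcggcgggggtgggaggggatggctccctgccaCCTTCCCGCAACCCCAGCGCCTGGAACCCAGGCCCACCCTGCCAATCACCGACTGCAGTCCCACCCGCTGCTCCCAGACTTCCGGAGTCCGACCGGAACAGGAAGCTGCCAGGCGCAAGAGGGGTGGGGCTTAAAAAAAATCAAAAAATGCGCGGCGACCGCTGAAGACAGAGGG
A CCAAT motif was found once in that window, 84 bases before the Cip2a start, inside the capitals; 37.4% of all 32851 RefSeq promoter windows of the same length hold that motif on either strand. None of the E2F-type motifs given below, of GGGCGG or of CACGTG was found there. Such matches describe the letters and not the binding of a factor.

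Dzip3 stood at 1.45, 1.24 and 0.885 CPM in Cip2a-/- glands and at 4.31, 3.33 and 2.46 CPM in WT glands. The groups did not overlap, and the log2 fold change was -1.49 ± 0.34, or -1.28 without WT library 1. Dzip3 was also lower in Cip2a-/- glands that had seen no DMBA, at -1.004 ± 0.33, and 2 weeks after it, at -1.23 ± 0.33. The genotype difference at the endpoint differed from the mean of those 2 by -0.38 ± 0.41 (edgeR quasi-likelihood test, adjusted p = 0.668). Without WT untreated library 3 the untreated value was -1.04 ± 0.38. That difference was then -0.36 ± 0.44 (edgeR quasi-likelihood test, adjusted p = 0.748). The lower Dzip3 level can therefore not be called particular to the endpoint.

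Further along chromosome 16 the list of Cip2a's neighbours had 29 members tested. Of these, 6 were higher and 6 lower at an unadjusted p under 0.05, against 4.05% and 6.67% of all genes. The median was -0.23 (0.13 without WT library 1, with 5 higher and 3 lower, against 1.82% and 1.84%). For Ift57 the values were 20.6, 32.7 and 30.7 CPM in Cip2a-/- glands, against 8.43, 15.9 and 15.99 CPM in WT glands. Ift57, 679.6 kb from Cip2a, encodes a subunit of the particle that carries cargo along cilia. Its groups did not overlap, with a log2 fold change of 1.06 ± 0.26. The CPM of Cd47 were 49.0, 51.0 and 68.0 in Cip2a-/- glands and 45.8, 32.7 and 31.0 in WT glands. Cd47, 831.6 kb away, encodes the cell-surface signal that restrains phagocytes. The log2 fold change of Cd47 was 0.62 ± 0.20 at the endpoint, 0.73 ± 0.20 in untreated glands and 0.52 ± 0.20 at 2 weeks. In untreated glands it was 0.75 ± 0.23 without WT untreated library 3. Cd200 gave 136, 168 and 252 CPM in Cip2a-/- glands and 62.6, 122 and 57.5 CPM in WT glands. Cd200, 3585 kb away on the other side, encodes an inhibitory ligand for myeloid cells and had a log2 fold change of 1.20 ± 0.32. Cd47 and Cd200 were picked after their values were seen.

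The make-up of the glands differed most in WT library 1, and the affected lists are given first because they bound what can be read from the rest. In bulk tissue, fewer cells of a type and less RNA per cell cannot be told apart. Ckm had 6.92, 1.24 and 32.7 CPM in Cip2a-/- glands, against 6677, 0.929 and 29.1 CPM in WT glands. Ckm is creatine kinase of muscle. Ucp1 stood at 8.27, 29.0 and 1.88 CPM in Cip2a-/- glands and at 5835, 0.929 and 0.190 CPM in WT glands. Ucp1 is the uncoupling protein of brown fat. For both genes the WT group is wide, with library 1 the highest by far. For Krt8 the values were 766, 234 and 556 CPM in Cip2a-/- glands, against 4.75, 674 and 112 CPM in WT glands. Krt8 is a luminal keratin, and it was at its lowest in WT library 1; it was picked after its values were seen.

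For whole lists this gives differences that depend on that library. The median log2 fold change of the 27 skeletal muscle genes was -5.86, and -1.56 without WT library 1. That of the 17 brown fat genes was -2.46, and 0.62 without it. That of the 17 B cell genes was -4.86, and -1.25 without it, with WT library 3 still high. For the 22 T cell genes it was -3.82, and 0.03 without it. The 12 genes of lymph node stroma and homing had -4.41, and -0.27 without it. White adipocyte genes, the markers of the fat pad itself, had a median of -0.06 over 20 members (-0.21 without WT library 1, with 16 of 20 below 0), and 2548, 4165 and 767 CPM in Cip2a-/- glands against 719, 1678 and 4034 CPM in WT glands for Adipoq, the adipocyte hormone adiponectin.

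**Figure D1:**
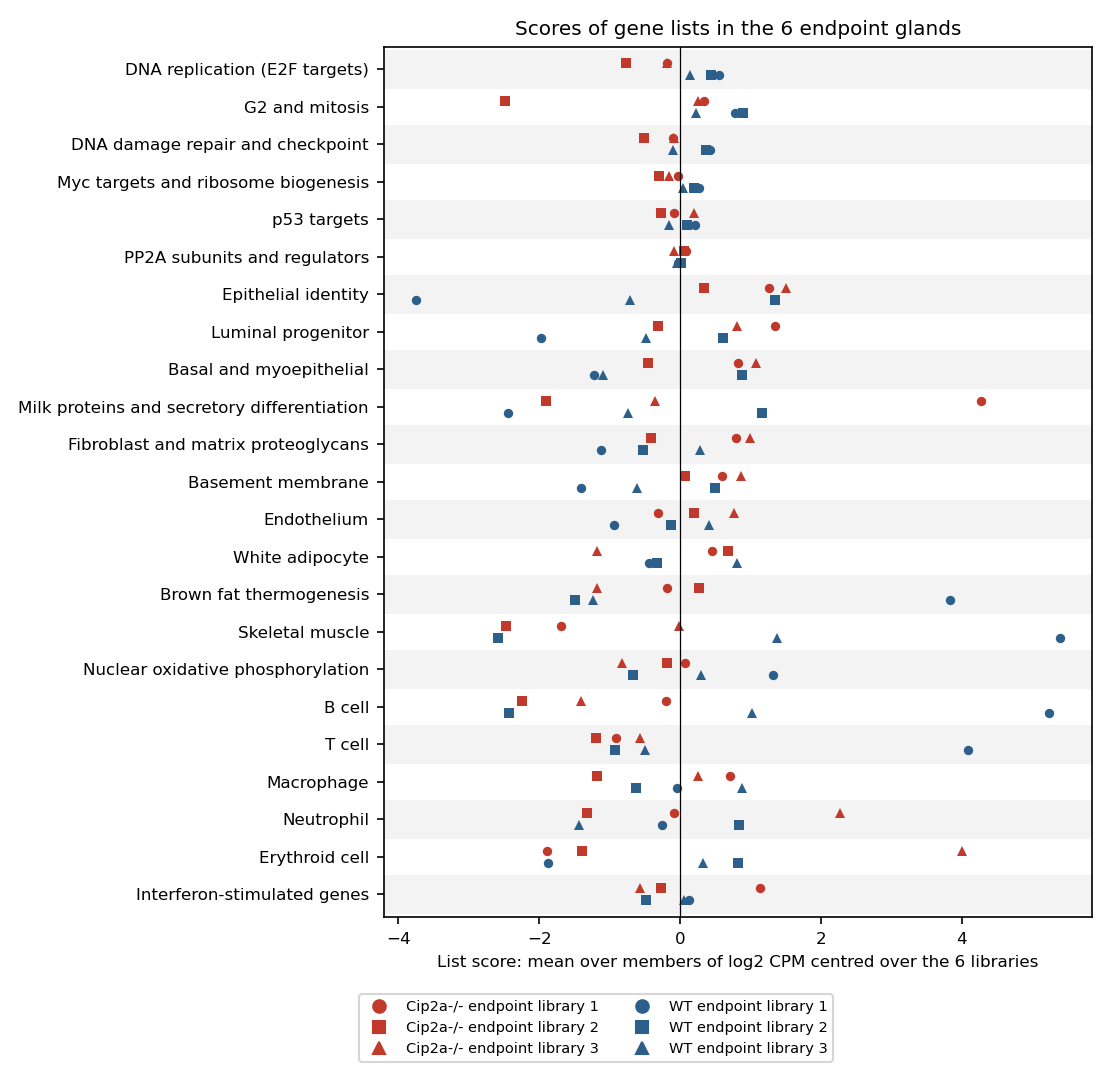
Scores of 23 gene lists in each endpoint library: the mean over the members of log2 CPM centred over the 6 libraries, Cip2a-/- libraries in red above WT libraries in blue, with 1 symbol per library number. WT library 1 lies at 5.39 for skeletal muscle, 5.25 for B cells and -3.75 for epithelium, while the DNA replication scores of the 3 Cip2a-/- libraries (-0.19, -0.76 and -0.18) all lie below those of the WT libraries (0.55, 0.44 and 0.15).

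DNA replication genes were the list whose lower level in Cip2a-/- glands moved least when WT library 1 was left out, among the lists with a median beyond 0.5 in size that were lower. Of its 34 members tested, 14 were lower at an unadjusted p under 0.05 and 0 were higher, against 6.67% lower among all genes. In 14 members every Cip2a-/- value lay below every WT value, against 3.02% of all genes. The median log2 fold change was -0.62 with all libraries, between -0.79 and -0.58 with any 1 endpoint library left out, and -0.60 without WT library 1, where all 34 members were below 0 and 5 were lower at p under 0.05. None passed adjustment over all genes.

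Of the 6 subunits Mcm2 to Mcm7 of the replicative helicase, 5 were lower at an unadjusted p under 0.05, and Mcm7 was not (-0.39 ± 0.26). The CPM of Mcm2 were 17.2, 10.4 and 21.4 in Cip2a-/- glands and 43.3, 28.0 and 25.3 in WT glands. Mcm3 gave 19.6, 15.5 and 25.8 CPM in Cip2a-/- glands and 52.3, 34.9 and 31.1 CPM in WT glands. Mcm5 had 15.2, 7.04 and 14.2 CPM in Cip2a-/- glands, against 52.7, 28.5 and 30.9 CPM in WT glands. The MCM complex unwinds DNA at the origins, and for each of these 3 the highest Cip2a-/- value lay below the lowest WT value. Their log2 fold changes were -0.98 ± 0.40, -0.96 ± 0.40 and -1.62 ± 0.50, and without WT library 1 -0.71, -0.71 and -1.29. Those of Mcm4 and Mcm6 were -0.52 ± 0.22 and -1.27 ± 0.55. Hells stood at 1.60, 1.29 and 1.77 CPM in Cip2a-/- glands and at 7.48, 5.69 and 1.77 CPM in WT glands. Hells encodes a chromatin remodeller that keeps DNA methylation at repeats, and here 1 WT library was as low as the highest Cip2a-/- library. Its log2 fold change was -1.68 ± 0.47, and -1.27 without WT library 1. Cdc7 and Gmnn, which act in starting replication and were not on the list, are given with the 12 genes that led the lower side.

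The promoters of Mcm5 and Hells are shown because they carry the E2F-type motif for which this list is known. They span chr8:75109259-75109558 (+ strand) and chr19:38930740-38931039 (+ strand) of GRCm38 in RefSeq, and capitals mark matches.
Mcm5 promoter: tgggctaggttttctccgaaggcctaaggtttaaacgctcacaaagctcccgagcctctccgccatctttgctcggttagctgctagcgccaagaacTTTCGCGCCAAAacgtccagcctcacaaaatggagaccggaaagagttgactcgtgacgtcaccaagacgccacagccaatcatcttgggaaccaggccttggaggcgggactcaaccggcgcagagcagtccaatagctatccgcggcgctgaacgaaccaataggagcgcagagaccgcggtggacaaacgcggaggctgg
Hells promoter: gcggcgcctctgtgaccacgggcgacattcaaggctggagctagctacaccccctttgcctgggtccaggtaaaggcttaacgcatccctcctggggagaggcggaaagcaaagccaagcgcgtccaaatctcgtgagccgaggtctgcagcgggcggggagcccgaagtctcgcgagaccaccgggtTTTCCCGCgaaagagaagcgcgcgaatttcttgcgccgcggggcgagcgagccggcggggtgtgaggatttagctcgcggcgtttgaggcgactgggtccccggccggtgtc
The motifs searched were TTTCCCGC, TTTCGCGC, TTTGCCGC and TTTGGCGC on both strands, with overlapping matches allowed; Mcm5 had 2 that overlap and Hells had 1. A promoter window was found for 28 of the 34 genes, and 13 of these held a match (46.4%), against 491 of the 11235 genes tested that had a window (4.37%). Among the members lower at an unadjusted p under 0.05, 7 of 11 with a window held one (63.6%). The list was written as one of E2F targets, so these shares describe it and are no finding.

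**Figure D2:**
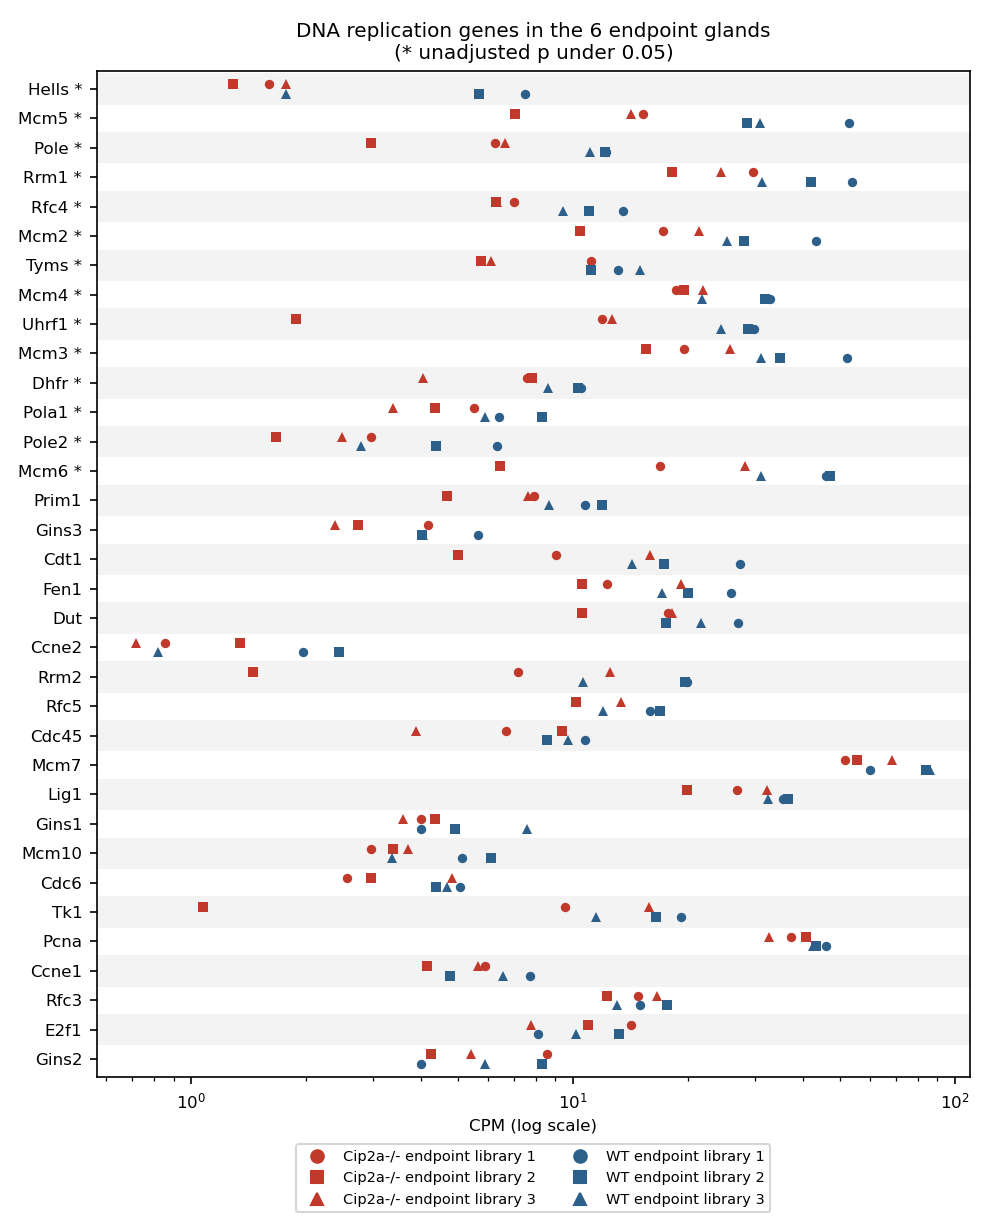
CPM on a log scale of the 34 DNA replication genes in each endpoint library, Cip2a-/- libraries in red above WT libraries in blue, ordered by unadjusted p, with an asterisk at p under 0.05. In 14 genes the 3 Cip2a-/- values lie left of all 3 WT values, and Cip2a-/- library 2 is the lowest for Mcm2, Mcm3 and Mcm5.

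Genes of G2 and mitosis did not follow as evenly. For Mki67 the values were 29.3, 1.02 and 64.5 CPM in Cip2a-/- glands, against 51.2, 43.6 and 27.9 CPM in WT glands. Mki67 encodes the proliferation marker Ki-67, and its groups overlapped: Cip2a-/- library 3 was the highest and library 2 the lowest of the 6. The CPM of Top2a were 23.5, 1.18 and 16.6 in Cip2a-/- glands and 39.8, 26.7 and 27.6 in WT glands. Foxm1 gave 10.5, 4.57 and 10.9 CPM in Cip2a-/- glands and 15.9, 17.5 and 14.3 CPM in WT glands. Top2a, the topoisomerase of dividing cells, and Foxm1, a transcription factor of the mitotic genes, had no overlap. Of the 30 members tested, 1 was lower at an unadjusted p under 0.05 (0 without WT library 1) and 0 were higher. Among all genes 6.67% were lower at that p. In 9 members every Cip2a-/- value lay below every WT value, against 3.02% of all genes. The median was -0.78 and ranged from -1.24 to -0.38 when each endpoint library was left out; the scores were 0.34, -2.49 and 0.26 in the Cip2a-/- libraries, against 0.78, 0.89 and 0.22 in the WT libraries, so the size of this median rests on Cip2a-/- library 2.

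DNA repair genes held 4 of 34 members lower and 0 higher at an unadjusted p under 0.05, with a median of -0.25 (-0.13 without WT library 1, with 3 lower). The shares among all genes were 6.67% lower and 4.05% higher, and 1.84% lower and 1.82% higher without WT library 1. Parp1 had 79.0, 59.9 and 40.4 CPM in Cip2a-/- glands, against 177, 64.7 and 113 CPM in WT glands. Parp1, which senses strand breaks, overlapped by 1 WT library and had a log2 fold change of -0.98 ± 0.29, or -0.58 without WT library 1. Atm stood at 14.5, 19.4 and 14.8 CPM in Cip2a-/- glands and at 28.8, 18.5 and 10.9 CPM in WT glands. Atm, the kinase that signals breaks, showed no separation. For the 27 p53 targets the median was -0.03 (0.034 without it), with 1 member higher and 2 lower at p under 0.05 (1 and 1 without it). For Fas the values were 25.4, 37.1 and 45.2 CPM in Cip2a-/- glands, against 23.5, 23.6 and 22.6 CPM in WT glands. Fas, a death receptor, had 3 Cip2a-/- values above the WT values (0.63 ± 0.18). The CPM of Gdf15 were 0.652, 0.591 and 0.996 in Cip2a-/- glands and 1.14, 1.70 and 4.17 in WT glands. Gdf15, a stress cytokine, lay lower in all 3 Cip2a-/- glands. Cdkn1a gave 67.2, 121 and 496 CPM in Cip2a-/- glands and 68.9, 109 and 135 CPM in WT glands. Cdkn1a, the p21 inhibitor of cyclin kinases, was high in Cip2a-/- library 3 alone. Mdm2 had 45.5, 48.6 and 54.2 CPM in Cip2a-/- glands, against 57.3, 57.9 and 36.7 CPM in WT glands. Mdm2, the ubiquitin ligase of p53, overlapped throughout.

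Myc itself did not separate the genotypes. Myc stood at 57.5, 39.2 and 66.1 CPM in Cip2a-/- glands and at 32.9, 118 and 53.3 CPM in WT glands. The WT libraries spanned the Cip2a-/- libraries, with a log2 fold change of -0.33 ± 0.52, and -0.66 without WT library 1. Together with Myc, its targets and genes of ribosome synthesis made a list of 30. Of these, 9 were lower and 0 higher at an unadjusted p under 0.05, against 6.67% lower among all genes. All 30 log2 fold changes were below 0, with a median of -0.33. Without WT library 1 the median was -0.24, with 27 of 30 below 0. In that fit 2 members were lower at p under 0.05, against 1.84% of all genes. For Odc1 the values were 34.6, 42.1 and 28.5 CPM in Cip2a-/- glands, against 79.3, 43.6 and 80.8 CPM in WT glands. Odc1 encodes ornithine decarboxylase, which starts polyamine synthesis. Its groups did not overlap, and the log2 fold change was -0.95 ± 0.25. The CPM of Dkc1 were 25.8, 21.2 and 16.2 in Cip2a-/- glands and 40.4, 28.0 and 30.9 in WT glands. Dkc1, the pseudouridine synthase of ribosomal RNA, did not overlap either (-0.65 ± 0.20). Ncl gave 332, 314 and 422 CPM in Cip2a-/- glands and 355, 452 and 297 CPM in WT glands. Ncl, nucleolin, overlapped.

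PP2A, the phosphatase that CIP2A restrains, was measured through 24 subunits and regulators, with a median of -0.02. Of these, 2 were lower and 0 higher at an unadjusted p under 0.05, against 6.67% and 4.05% of all genes. Without WT library 1, 0 were lower. Ppp2ca had 198, 219 and 134 CPM in Cip2a-/- glands, against 256, 194 and 277 CPM in WT glands. Ppp2ca, a catalytic subunit, overlapped, with a log2 fold change of -0.40 ± 0.18. Set stood at 110.5, 91.0 and 106 CPM in Cip2a-/- glands and at 150.5, 134 and 117 CPM in WT glands. Set, another protein inhibitor of PP2A, did not overlap, with -0.38 ± 0.16. These are RNA levels and say nothing of the activity of the phosphatase.

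Across all genes, 60 were higher and 36 lower by the rule used for naming: no overlap between the groups, at least 2 CPM on average, and an unadjusted p under 0.05 with all libraries and without each endpoint library in turn. The 12 with the smallest p on each side are described, Ift57 and Dzip3 above and the others here; none passed adjustment (edgeR quasi-likelihood test, adjusted p = 0.458 for each). Since the rule picked them on these values, the values are a description.

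The 12 on the higher side came from several families. For Vit the values were 8.92, 3.65 and 12.0 CPM in Cip2a-/- glands, against 1.14, 1.08 and 1.77 CPM in WT glands. Vit encodes vitrin, a protein of the extracellular matrix, with a log2 fold change of 2.62 ± 0.49. The CPM of P2rx1 were 9.98, 14.0 and 13.6 in Cip2a-/- glands and 4.31, 5.22 and 5.50 in WT glands. P2rx1 is an ATP-gated channel of smooth muscle (1.32 ± 0.27). Hey2 gave 6.87, 6.29 and 5.97 CPM in Cip2a-/- glands and 2.03, 2.75 and 2.53 CPM in WT glands. Hey2 is a Notch-induced repressor of vessel walls (1.39 ± 0.32), tight within both groups. Bmp4 had 10.6, 13.8 and 24.0 CPM in Cip2a-/- glands, against 4.56, 7.24 and 5.94 CPM in WT glands. Bmp4 is a secreted growth factor of the BMP family (1.44 ± 0.35). Mgat3 stood at 21.6, 22.5 and 34.9 CPM in Cip2a-/- glands and at 5.39, 13.1 and 8.53 CPM in WT glands. Mgat3 adds the bisecting sugar to N-glycans (1.55 ± 0.31). For Ephb6 the values were 31.7, 31.8 and 39.7 CPM in Cip2a-/- glands, against 11.8, 24.7 and 13.2 CPM in WT glands. Ephb6 is an Eph receptor without kinase activity (1.05 ± 0.26).

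The remaining 5 encode membrane proteins. The CPM of Adra2c were 4.86, 3.12 and 3.93 in Cip2a-/- glands and 0.697, 1.20 and 0.442 in WT glands. Adra2c, an adrenergic receptor, had 2.32 ± 0.50. Npy1r gave 13.5, 10.3 and 24.6 CPM in Cip2a-/- glands and 2.79, 7.12 and 6.95 CPM in WT glands. Npy1r, a receptor of neuropeptide Y, had 1.52 ± 0.36. Cacna1h had 7.27, 10.6 and 6.80 CPM in Cip2a-/- glands, against 4.69, 4.53 and 3.54 CPM in WT glands. Cacna1h, a T-type calcium channel, had 0.95 ± 0.22. Without WT library 1 the log2 fold changes of these 3 receptor and channel genes were 2.24, 1.19 and 1.02. The rule that picked them required an unadjusted p under 0.05 in that fit too. Lrrn2 stood at 8.07, 14.8 and 10.7 CPM in Cip2a-/- glands and at 1.71, 5.11 and 2.09 CPM in WT glands. Lrrn2, a leucine-rich repeat membrane protein, had 1.90 ± 0.39. For Nrxn3 the values were 5.82, 8.60 and 11.2 CPM in Cip2a-/- glands, against 0.127, 1.47 and 1.96 CPM in WT glands. Nrxn3, a neurexin of synapses, had 2.83 ± 0.69, and its WT library 1 was the lowest. Genes of nerve and Schwann cells as a list had 15 members and a median of 0.47, with 0 members at an unadjusted p under 0.05 in either direction; without WT library 1 the median was 0.21, with 1 higher and 1 lower.

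On the lower side, 2 of the 12 act in starting replication. The CPM of Cdc7 were 5.36, 5.80 and 5.48 in Cip2a-/- glands and 14.6, 10.9 and 13.4 in WT glands. Cdc7 is the kinase that fires licensed origins, and its 3 Cip2a-/- values were close to each other (-1.23 ± 0.33). Gmnn gave 3.96, 3.98 and 4.76 CPM in Cip2a-/- glands and 18.7, 7.66 and 7.01 CPM in WT glands. Gmnn, geminin, blocks licensing once a cell replicates (-1.39 ± 0.38, and -0.80 without WT library 1). Nfyc had 39.3, 36.1 and 31.0 CPM in Cip2a-/- glands, against 63.8, 41.8 and 50.6 CPM in WT glands. Nfyc is a subunit of NF-Y, the factor that binds CCAAT (-0.55 ± 0.15). Yeats4 stood at 28.5, 31.5 and 26.2 CPM in Cip2a-/- glands and at 44.5, 33.8 and 46.9 CPM in WT glands. Yeats4 reads acetylated histones (-0.54 ± 0.16). Odc1, given above, was also among the 12.

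For C1qbp the values were 69.5, 81.2 and 72.1 CPM in Cip2a-/- glands, against 122, 86.1 and 117 CPM in WT glands. C1qbp is a protein of the mitochondrial matrix (-0.54 ± 0.14). The CPM of Ciapin1 were 43.6, 36.2 and 37.5 in Cip2a-/- glands and 113, 51.3 and 52.8 in WT glands. Ciapin1 acts in building iron-sulphur clusters (-0.89 ± 0.24), and WT library 1 set much of its difference, which was -0.42 without it. Rhot2 gave 77.9, 97.9 and 73.0 CPM in Cip2a-/- glands and 157, 98.1 and 123 CPM in WT glands. Rhot2 is a GTPase that ties mitochondria to motor proteins (-0.60 ± 0.17); its highest Cip2a-/- value nearly reached its lowest WT value. Pigo had 33.9, 28.1 and 27.9 CPM in Cip2a-/- glands, against 56.8, 37.8 and 39.7 CPM in WT glands. Pigo acts in making GPI anchors (-0.58 ± 0.15, and -0.37 without WT library 1). F2rl3 stood at 1.25, 1.56 and 1.60 CPM in Cip2a-/- glands and at 2.98, 2.83 and 6.57 CPM in WT glands. F2rl3 is the thrombin receptor PAR4 (-1.48 ± 0.35). For Rnf157 the values were 1.75, 1.07 and 2.77 CPM in Cip2a-/- glands, against 23.2, 3.33 and 8.53 CPM in WT glands. Rnf157, a ubiquitin ligase, had -2.64 ± 0.69, and -1.67 without WT library 1.

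**Figure D3:**
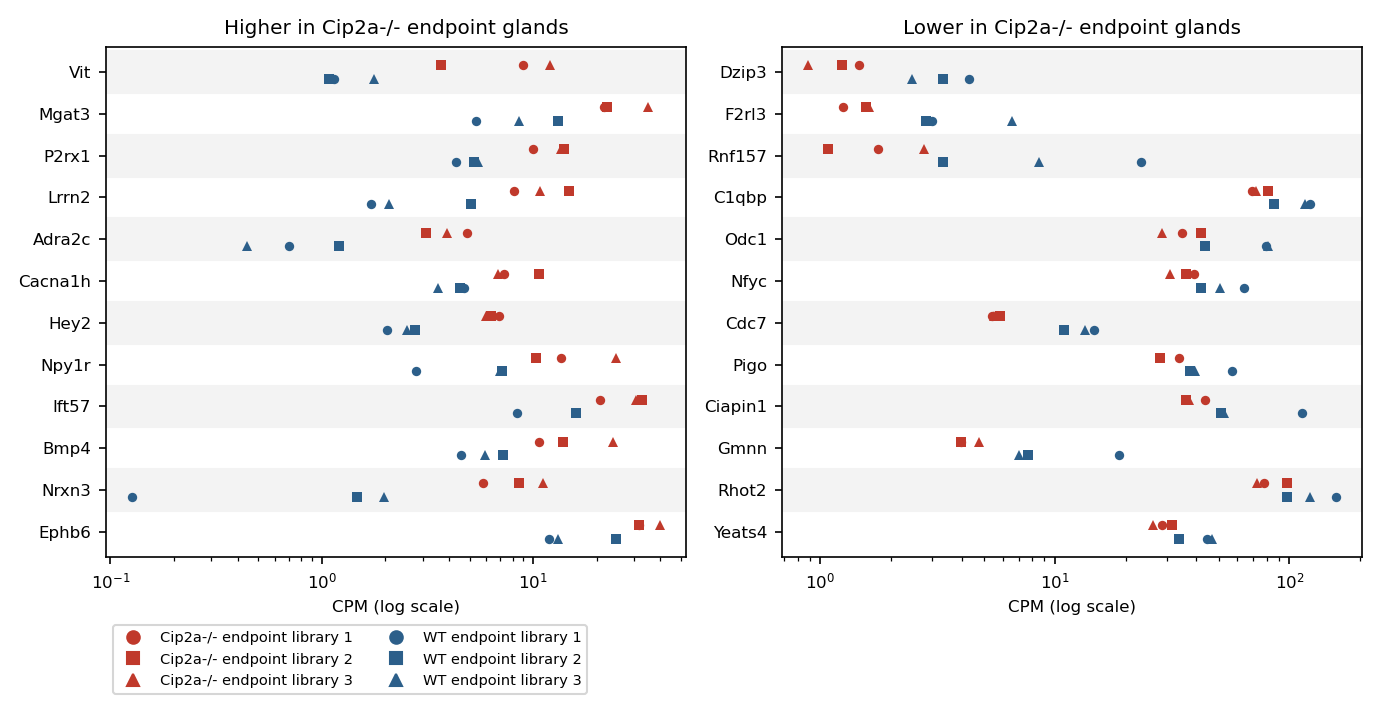
CPM on a log scale of the 12 genes with the smallest p on the higher side and the 12 on the lower side, Cip2a-/- libraries in red above WT libraries in blue. By the rule that picked them no gene has overlapping groups. The gap is wide for Nrxn3, Adra2c, Hey2 and Vit on the higher side and narrow for Rhot2 and Odc1 on the lower side.

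The epithelial list did not separate the genotypes: its scores were 1.26, 0.34 and 1.5 in the Cip2a-/- libraries, against -3.75, 1.35 and -0.70 in the WT libraries. All 20 log2 fold changes of the epithelial identity list were above 0, with 1 member higher and 0 lower at an unadjusted p under 0.05, against 4.05% higher among all genes. The median was 0.97. Without WT library 1 it was 0.43, with 18 of 20 above 0. The CPM of Epcam were 280.5, 134 and 439 in Cip2a-/- glands and 4.37, 362 and 92.0 in WT glands. Cdh1 gave 171, 118 and 236 CPM in Cip2a-/- glands and 5.70, 159.9 and 39.5 CPM in WT glands. Epcam and Cdh1 encode adhesion proteins of all epithelium, and WT library 2 lay within the range of the Cip2a-/- libraries. Elf3 had 44.8, 37.6 and 33.5 CPM in Cip2a-/- glands, against 0.824, 28.3 and 9.80 CPM in WT glands. Elf3, an epithelial transcription factor, was the listed gene with the smallest p and did not overlap (1.57 ± 0.70, and 1.02 without WT library 1).

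Among the epithelial layers no list separated the genotypes. Luminal progenitor genes had a median of 0.89 over 18 members (0.64 without WT library 1), with 1 higher and 1 lower at p under 0.05. Elf5 stood at 124, 15.3 and 64.8 CPM in Cip2a-/- glands and at 0.127, 91.1 and 15.9 CPM in WT glands. For Kit the values were 128, 62.4 and 123 CPM in Cip2a-/- glands, against 18.2, 126 and 46.5 CPM in WT glands. Elf5 and Kit, the defining factor and receptor of these cells, overlapped. The CPM of Cxcr4 were 17.0, 6.45 and 13.1 in Cip2a-/- glands and 49.6, 22.3 and 35.1 in WT glands. Cxcr4, a chemokine receptor that lymphocytes carry as well, was the lower one (-1.55 ± 0.52). Hormone-sensing luminal genes had a median of 0.68 over 18 members (0.20 without WT library 1), with 2 higher and 0 lower (1 and 0 without it).

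Esr1 gave 6.52, 5.75 and 2.05 CPM in Cip2a-/- glands and 5.70, 4.14 and 4.87 CPM in WT glands. Pgr had 21.4, 4.41 and 12.0 CPM in Cip2a-/- glands, against 0.254, 27.0 and 0.379 CPM in WT glands. Esr1 and Pgr, the receptors of oestrogen and progesterone, overlapped. Ly6a stood at 424, 276 and 369.7 CPM in Cip2a-/- glands and at 176, 180.0 and 222 CPM in WT glands. For Wnt5a the values were 38.5, 23.3 and 17.1 CPM in Cip2a-/- glands, against 8.62, 18.2 and 5.12 CPM in WT glands. Ly6a, the surface antigen Sca-1, and Wnt5a, a secreted Wnt ligand, were the 2 with a small p (0.89 ± 0.34 and 1.30 ± 0.39). Ly6a did not overlap, and Wnt5a overlapped in Cip2a-/- library 3. Basal genes had a median of 0.73 over 21 members (0.45 without WT library 1), with 1 higher and 1 lower (1 and 0 without it). The CPM of Krt14 were 96.8, 64.5 and 223 in Cip2a-/- glands and 0.887, 195 and 11.4 in WT glands. Krt14, the basal keratin, was low in WT libraries 1 and 3 and high in WT library 2. Igfbp5 gave 2815, 588 and 859 CPM in Cip2a-/- glands and 394, 591 and 496 CPM in WT glands. Igfbp5, which binds insulin-like growth factors, was highest in Cip2a-/- library 1 (1.52 ± 0.50), and its groups overlapped in Cip2a-/- library 2.

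Milk genes were high in 1 Cip2a-/- gland. Csn1s1 had 1248, 0.215 and 2.43 CPM in Cip2a-/- glands, against 0.127, 55.2 and 8.91 CPM in WT glands. Lalba stood at 131, 0.537 and 1.33 CPM in Cip2a-/- glands and at 0.507, 1.04 and 0.948 CPM in WT glands. For Spp1 the values were 898, 8.65 and 23.2 CPM in Cip2a-/- glands, against 8.55, 7.86 and 9.48 CPM in WT glands. Csn1s1 and Lalba encode a casein and alpha-lactalbumin, and Spp1 encodes osteopontin. In each case Cip2a-/- library 1 was far above the other 5 libraries. The list of 16 had 3 higher and 0 lower at an unadjusted p under 0.05, against 4.05% higher among all genes. The median was 1.75, and between -0.76 and 3.49 when 1 endpoint library was left out. Its scores were 4.27, -1.90 and -0.36 in the Cip2a-/- libraries, against -2.44, 1.17 and -0.74 in the WT libraries.

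Matrix lists differed among themselves. Of 26 basement membrane genes, 6 were higher and 0 lower at an unadjusted p under 0.05, against 4.05% higher among all genes. All 26 log2 fold changes were above 0, with a median of 0.62. Without WT library 1 the median was 0.29, with 23 of 26 above 0 and 2 higher at that p. This median was the lowest of the 6 fits with 1 library left out, and the highest was 0.99. The CPM of Col4a4 were 1.504, 0.860 and 2.21 in Cip2a-/- glands and 0.444, 0.271 and 0.442 in WT glands. Col4a4 encodes a collagen IV chain found in specialised membranes, at a low level (1.98 ± 0.40, and 2.10 without WT library 1). Lamb2 gave 371, 387 and 559 CPM in Cip2a-/- glands and 159, 328 and 311 CPM in WT glands. Lamb2 encodes a laminin chain (0.72 ± 0.26, and 0.45 without it). Col4a1 had 1397, 1072 and 938 CPM in Cip2a-/- glands, against 472, 871 and 1217 CPM in WT glands. Col4a1, the common collagen IV chain, overlapped. Fibroblast and proteoglycan genes had 6 of 26 higher and 0 lower, with a median of 0.72 (0.57 without it, with 3 higher and 1 lower). Dcn stood at 1048, 473 and 1807 CPM in Cip2a-/- glands and at 178, 492 and 413 CPM in WT glands. Dcn, decorin, had 1.62 ± 0.48, and its groups overlapped in Cip2a-/- library 2. For Pdgfra the values were 65.3, 25.9 and 100.1 CPM in Cip2a-/- glands, against 24.8, 52.4 and 38.9 CPM in WT glands. The CPM of Col1a1 were 480.0, 79.5 and 203 in Cip2a-/- glands and 75.3, 74.6 and 502 in WT glands. Pdgfra, a fibroblast receptor, and Col1a1, the main fibrillar collagen, overlapped. Of 20 fibrillar and other collagens, 0 were higher and 2 lower, with a median of 0.45 (0.083 without WT library 1, with 9 of 20 below 0). Col4a4 and Vit were put on the basement membrane and fibroblast lists with their values known, so each of those counts holds 1 member that was picked for its difference.

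Of 23 endothelial genes, 7 were higher and 0 lower at an unadjusted p under 0.05, against 4.05% higher among all genes. The median was 0.44. Without WT library 1, 1 was higher, against 1.82%, and the median was 0.16. Thbd gave 123, 84.0 and 89.0 CPM in Cip2a-/- glands and 37.7, 65.4 and 77.8 CPM in WT glands. Thbd, thrombomodulin, did not overlap (0.71 ± 0.25, and 0.46 without it). Vwf had 257, 164 and 486 CPM in Cip2a-/- glands, against 53.2, 176 and 169.9 CPM in WT glands. Vwf, the clotting factor of vessel walls, overlapped in Cip2a-/- library 2 (1.18 ± 0.42). Cdh5 stood at 228, 512 and 674 CPM in Cip2a-/- glands and at 212, 327 and 512 CPM in WT glands. For Pecam1 the values were 302, 500.3 and 838 CPM in Cip2a-/- glands, against 254, 379 and 598 CPM in WT glands. Cdh5 and Pecam1, adhesion proteins of all endothelium, overlapped. Matrix proteases had 4 of 24 higher and 0 lower, with a median of 0.48 (0.11 without WT library 1, with 0 higher). The CPM of Adamts5 were 102, 70.5 and 50.3 in Cip2a-/- glands and 16.9, 33.2 and 45.4 in WT glands. Adamts5, which cuts proteoglycans, did not overlap (1.23 ± 0.42).

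Among secreted signals, 7 of 28 Wnt genes were higher and 0 lower at an unadjusted p under 0.05, against 4.05% higher among all genes. Their median was 0.76 (0.48 without WT library 1, with 3 higher, against 1.82%). Dkk2 gave 2.91, 0.913 and 3.98 CPM in Cip2a-/- glands and 0.824, 0.735 and 1.01 CPM in WT glands. Dkk2, an antagonist of Wnt receptors, overlapped in Cip2a-/- library 2 (1.60 ± 0.49). Wnt2 had 9.02, 1.61 and 5.37 CPM in Cip2a-/- glands, against 0.380, 2.40 and 2.40 CPM in WT glands. Wnt2, a ligand of the gland's fibroblasts, had 1.62 ± 0.72 and overlapped in Cip2a-/- library 2. Wnt4 stood at 15.4, 41.8 and 170.0 CPM in Cip2a-/- glands and at 14.7, 91.4 and 23.8 CPM in WT glands. Wnt4, the progesterone-induced ligand, was highest in Cip2a-/- library 3. TGF beta and BMP genes had 3 of 28 higher and 0 lower, with a median of 0.36 (0.27 without it, with 3 higher). For Ltbp1 the values were 102, 34.5 and 80.2 CPM in Cip2a-/- glands, against 24.97, 45.2 and 27.4 CPM in WT glands. Ltbp1 stores latent TGF beta in the matrix (1.15 ± 0.33), and its groups overlapped in Cip2a-/- library 2. The CPM of Tgfb1 were 73.3, 57.3 and 99.1 in Cip2a-/- glands and 92.0, 69.6 and 105 in WT glands. Tgfb1 itself overlapped. Of 18 Notch genes, 1 was higher, the Hey2 described above, and the median was 0.40 (0.19 without it); Notch1 gave 184, 245 and 275 CPM in Cip2a-/- glands and 84.9, 256 and 153 CPM in WT glands. Notch1 overlapped.

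**Figure D4:**
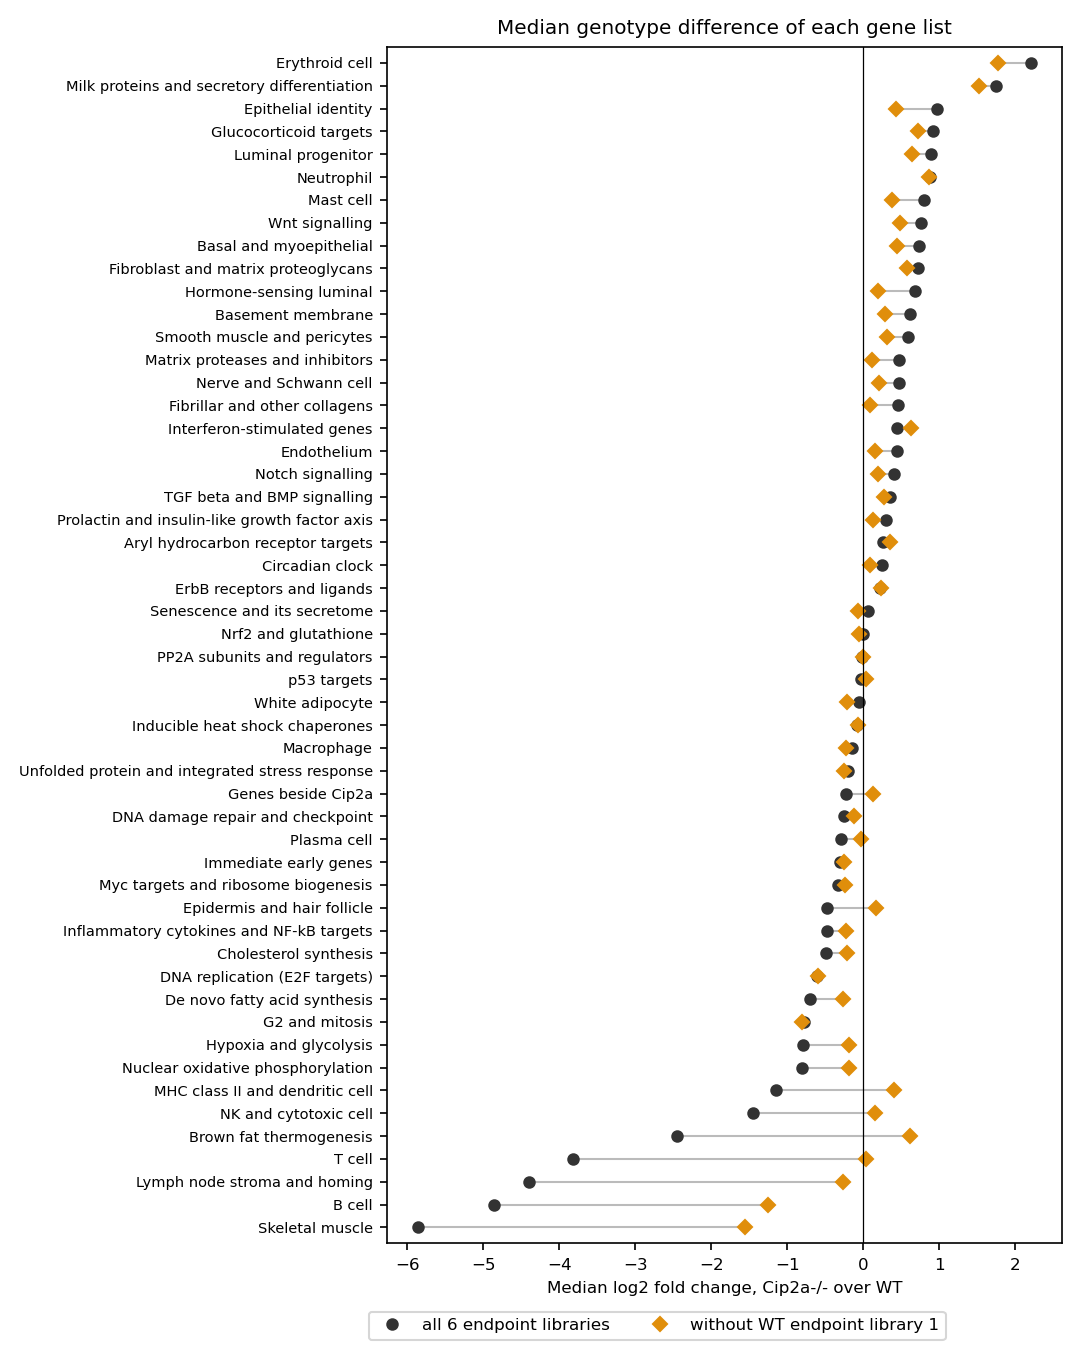
Median log2 fold change of Cip2a-/- over WT for each of the 52 gene lists, from the fit with all endpoint libraries (black) and without WT library 1 (orange), joined by a line. Muscle, lymph node, T cell, B cell and brown fat medians move the furthest, while those of DNA replication (-0.62 and -0.60) and of G2 and mitosis (-0.78 and -0.81) stay in place. With each endpoint library left out in turn, the G2 and mitosis median ranged from -1.24 to -0.38.

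Energy metabolism followed WT library 1. Oxidative phosphorylation genes had 14 of 36 lower and 0 higher at an unadjusted p under 0.05, against 6.67% lower among all genes. All 36 log2 fold changes were below 0, with a median of -0.80. Without WT library 1 the median was -0.19, with 27 of 36 below 0 and 0 lower at that p. Uqcrc1 had 372, 347 and 204 CPM in Cip2a-/- glands, against 1339, 238 and 519 CPM in WT glands. Cox5a stood at 174, 132 and 95.3 CPM in Cip2a-/- glands and at 661, 105 and 228 CPM in WT glands. Uqcrc1 and Cox5a, subunits of respiratory complexes III and IV, were highest in WT library 1 and lower in WT library 2 than in 2 Cip2a-/- libraries. Muscle and brown fat, whose markers were high in that library, are rich in these genes; their part in the result was not tested. Cholesterol synthesis genes were below 0 in all 22 members, with a median of -0.48 and 0 at p under 0.05. Without WT library 1 the median was -0.21, with 17 of 22 below 0. For Cyp51 the values were 37.0, 15.3 and 11.5 CPM in Cip2a-/- glands, against 48.9, 18.9 and 42.6 CPM in WT glands. Cyp51, an enzyme of that pathway, overlapped. Hypoxia and glycolysis genes had 3 of 21 lower and 1 higher, with a median of -0.80 (-0.18 without it, with 0 in either direction). The CPM of Egln3 were 24.1, 16.9 and 12.3 in Cip2a-/- glands and 64.3, 32.6 and 49.1 in WT glands. Egln3, an oxygen sensor, did not overlap (-1.45 ± 0.52). Vegfa gave 273, 660.0 and 236 CPM in Cip2a-/- glands and 568, 437 and 521 CPM in WT glands. Vegfa, the vessel growth factor, overlapped.

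Of 20 cytokine and NF-kB target genes, 4 were lower and 0 higher at an unadjusted p under 0.05, against 6.67% lower among all genes. Their median was -0.47 (-0.23 without WT library 1, with 2 lower, against 1.84%). Tnf had 1.96, 1.24 and 1.77 CPM in Cip2a-/- glands, against 13.9, 5.80 and 2.40 CPM in WT glands. Tnf, the cytokine, did not overlap (-2.15 ± 0.62, and -1.31 without it). Nfkb2 stood at 66.3, 38.5 and 58.7 CPM in Cip2a-/- glands and at 144, 91.3 and 70.3 CPM in WT glands. Nfkb2, a subunit of NF-kB, did not overlap (-0.90 ± 0.30, and -0.57 without it). For Il1b the values were 1.96, 0.591 and 2.88 CPM in Cip2a-/- glands, against 5.07, 1.74 and 0.442 CPM in WT glands. Il1b, an interleukin, overlapped. The B cell scores beside these were -0.19, -2.24 and -1.41 in the Cip2a-/- libraries, against 5.25, -2.43 and 1.02 in the WT libraries; their part in the result was not tested.

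Genes of other blood cells had wide ranges in both genotypes. Macrophage genes had a median of -0.15 over 22 members, between -0.79 and 0.78 with 1 endpoint library left out. Neutrophil genes had 0.88 over 16 members with 0 at p under 0.05, between -0.91 and 1.49 with 1 library left out. The CPM of S100a8 were 8.22, 1.67 and 72.0 in Cip2a-/- glands and 9.95, 32.3 and 0.316 in WT glands. S100a8, a neutrophil protein, was highest in Cip2a-/- library 3. Alas2 gave 23.0, 67.9 and 1513 CPM in Cip2a-/- glands and 28.1, 224 and 108 CPM in WT glands. Alas2, the haem enzyme of red cell precursors, was highest in the same library, whose erythroid score was 4.0. Interferon-stimulated genes had a median of 0.45 over 26 members, between -0.26 and 0.62 with 1 endpoint library left out, with 2 higher and 0 lower (1 and 0 without WT library 1). Ifit1 had 32.9, 6.23 and 3.26 CPM in Cip2a-/- glands, against 4.499, 4.26 and 5.88 CPM in WT glands. Isg15 stood at 30.5, 3.65 and 4.65 CPM in Cip2a-/- glands and at 6.15, 5.03 and 8.22 CPM in WT glands. Ifit1 and Isg15, antiviral proteins, were high in Cip2a-/- library 1 only. For Ifih1 the values were 33.8, 28.6 and 17.6 CPM in Cip2a-/- glands, against 13.7, 18.9 and 18.8 CPM in WT glands. Ifih1, a sensor of viral RNA, overlapped (0.64 ± 0.24).

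The 10 targets and partners of the aryl hydrocarbon receptor had a median of 0.26. At an unadjusted p under 0.05, 2 were higher and 0 lower, against 4.05% higher among all genes. Without WT library 1 the median was 0.35, with the count again 2 higher, against 1.82%. The CPM of Ephx1 were 163, 174 and 169 in Cip2a-/- glands and 82.8, 107 and 103 in WT glands. Ephx1 encodes the epoxide hydrolase that acts on DMBA's intermediates, and the groups did not overlap (0.79 ± 0.23, and 0.68 without WT library 1). Nqo1 gave 20.7, 14.6 and 18.7 CPM in Cip2a-/- glands and 7.79, 14.2 and 7.46 CPM in WT glands. Nqo1, a quinone reductase, did not overlap by a narrow gap (0.87 ± 0.27). Ahr had 24.3, 17.9 and 18.8 CPM in Cip2a-/- glands, against 11.9, 26.8 and 7.27 CPM in WT glands. Ahrr stood at 0.451, 0.752 and 1.22 CPM in Cip2a-/- glands and at 0.887, 0.426 and 0.758 CPM in WT glands. Ahr, the receptor, and Ahrr, its repressor, overlapped. Nrf2 and glutathione genes had a median of 0.00 over 20 members, with 2 higher and 1 lower (-0.061 without WT library 1, with 1 higher). Nqo1 is on this list too and is counted among the higher members of both lists. For Gclc the values were 51.5, 126 and 116 CPM in Cip2a-/- glands, against 34.5, 62.6 and 54.2 CPM in WT glands. Gclc, which starts glutathione synthesis, had 0.96 ± 0.35, and its groups overlapped in Cip2a-/- library 1.

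Whether these differences belong to the endpoint was tested as the genotype difference at the endpoint minus the mean of the genotype differences in untreated glands and at 2 weeks, which share no library with it. No gene passed adjustment (edgeR quasi-likelihood test, 0% of genes called); at an unadjusted p under 0.05, 676 genes were above 0 (4.37%) and 1372 below (8.86%). DESeq2 called 174 genes. For DNA replication, 25 of 34 members were below 0 at p under 0.05 and 0 above, with a median difference of -1.22; without WT library 1, 0 of 34 were above, against 2.19% of all genes, and 17 were below, against 2.42%, with a median of -1.07. The untreated glands share in that contrast: there 17 of the 34 genes were higher in Cip2a-/- glands at p under 0.05, against 1.72% of all genes, and the median genotype difference was 0.68 untreated and 0.25 at 2 weeks. Without WT untreated library 3, 6 of the 34 were higher in untreated Cip2a-/- glands, against 1% of all genes, with a median of 0.63. In the difference between conditions 21 of 34 were then below 0 at p under 0.05, against 6.77% of all genes. The median was -1.18.

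Mcm5 averaged 35.0 CPM (10.4 to 49.9) in Cip2a-/- and 15.3 CPM (9.41 to 23.6) in WT untreated glands, with the lowest and highest of 3 libraries in brackets. At 2 weeks the mean was 17.2 CPM (13.6 to 21.4) in Cip2a-/- glands, against 12.5 CPM (10.6 to 14.4) in WT glands, and at the endpoint 12.1 CPM in Cip2a-/- glands, against 37.3 CPM in WT glands. The Cip2a-/- mean was thus the higher of the 2 genotypes in untreated glands and the lower at the endpoint. The untreated Cip2a-/- glands spread widely, and 1 of them was within the WT range. The interaction estimate for Mcm5 was -2.45 ± 0.61. Hells averaged 5.98 CPM (3.05 to 7.70) in Cip2a-/- and 1.64 CPM (1.27 to 1.91) in WT untreated glands, with the lowest and highest of 3 libraries in brackets. At 2 weeks the mean was 3.71 CPM (2.505 to 4.59) in Cip2a-/- glands, against 2.70 CPM (2.56 to 2.98) in WT glands, and at the endpoint 1.55 CPM in Cip2a-/- glands, against 4.98 CPM in WT glands. The interaction estimate for Hells was -2.83 ± 0.57. For Mcm5 and Hells the adjusted p of this test was 0.369 (edgeR quasi-likelihood test); without WT untreated library 3 the estimates were -2.32 ± 0.61 and -2.76 ± 0.60, with an adjusted p of 0.508. In the same contrast DNA repair genes had 14 of 34 members below 0 at an unadjusted p under 0.05, and 0 above. G2 and mitosis genes had 6 of 30 below and 0 above at that p, against 8.86% and 4.37% of all genes. Without WT library 1, 8 and 4 members of these lists were below, against 2.42% of all genes. Without WT untreated library 3, 14 and 4 were below, against 6.77%. Epithelial, fibroblast and Wnt genes had 2 of 20, 5 of 26 and 5 of 28 members above 0 at that p. Those below numbered 0, 0 and 2. The counts above were 2, 2 and 3 without WT library 1, against 2.19% of all genes, with 0, 0 and 1 below. They were 2, 3 and 4 without WT untreated library 3, against 460 of all 15482 genes, with 0, 0 and 2 below.

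Of the 24 genes described above, 22 had an adjusted p of 0.369 in this test, with 0.376 for Ift57 and 0.668 for Dzip3. For Vit the log2 fold change was -0.55 ± 0.46 untreated, 0.43 ± 0.46 at 2 weeks and 2.62 ± 0.49 at the endpoint. For Mgat3 the log2 fold change was -0.07 ± 0.31 untreated, 0.06 ± 0.30 at 2 weeks and 1.55 ± 0.31 at the endpoint. For Cdc7 the log2 fold change was 0.74 ± 0.32 untreated, -0.38 ± 0.32 at 2 weeks and -1.23 ± 0.33 at the endpoint. Without WT untreated library 3 the untreated values of Vit, Mgat3 and Cdc7 were -0.64 ± 0.52, 0.11 ± 0.34 and 0.92 ± 0.37. Because these genes were picked for a large difference at the endpoint, a smaller one in the other conditions follows in part from the picking.

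**Figure D5:**
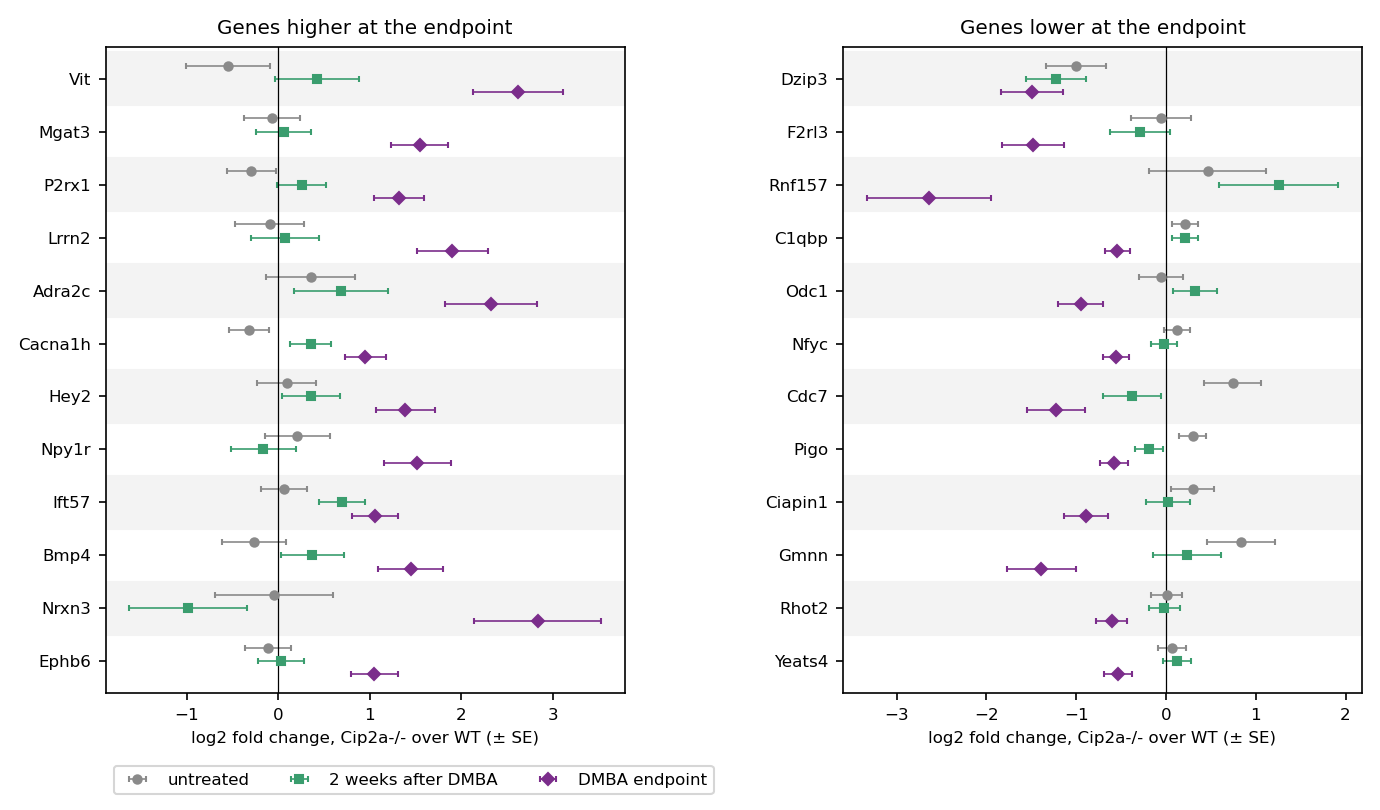
Log2 fold change of Cip2a-/- over WT ± SE for the 24 genes in untreated glands (grey), 2 weeks after DMBA (green) and at the endpoint (purple), with 3 Cip2a-/- and 3 WT glands in each condition. Dzip3 lies below 0 in all 3 conditions (-1.004, -1.23 and -1.49), while Vit, Mgat3 and Lrrn2 are among the genes that lie apart from 0 by more than 1 at the endpoint and by less than 1 in the other conditions.

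The number of genes called at the endpoint depended on the tool. edgeR called 1 gene, also without the low-count filter, with 19655 genes tested. DESeq2, run without that filter and with 19540 genes tested, called 83. Of these, 30 were higher and 53 lower in Cip2a-/- glands, and 42 of the 83 had groups that did not overlap. Among those 42 were Vit, Mgat3, P2rx1, Lrrn2, Dzip3 and F2rl3. Others called had overlapping groups, such as the B cell gene Blk and the muscle gene Myh2, both at their highest in WT library 1. limma voom called 1, as edgeR did, and voom with sample weights called 0. Leaving out WT library 2 gave 6 calls by edgeR: Xrcc6 and Cip2a lower, and Pitpnm3, Lrrn2, Ephb6 and Slc5a5 higher. The CPM of Xrcc6 were 35.9, 31.3 and 28.4 in Cip2a-/- glands and 138, 33.8 and 82.0 in WT glands. Xrcc6 encodes the Ku70 protein of end joining (-1.41 ± 0.34, and -0.87 without WT library 1), and WT library 2 lay within the Cip2a-/- range. Leaving out Cip2a-/- library 2 gave 1 call, Gli1, a transcription factor of Hedgehog signalling. Gli1 gave 39.2, 4.14 and 20.2 CPM in Cip2a-/- glands and 3.61, 2.44 and 5.12 CPM in WT glands. Its log2 fold change was 2.51 ± 0.57, and Cip2a-/- library 2 lay within the WT range. Xrcc6 and Gli1 were picked after their values were seen.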

How the data were processed

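Polyadenylated RNA of whole glands was isolated with a NucleoSpin kit and made into TruSeq Stranded mRNA libraries, per the labels' protocols. The submitters' processing notes name bcl2fastq 2.17, STAR 2.5.2b, Subread 1.5.1 and the build mm10. The authors deposited unnormalized counts of reads for each gene symbol in each library, per the file headers. No source used here gives the strand setting or the annotation, so counts of Cip2a and Dzip3, which lie beside each other on opposite strands, and of other overlapping or near-identical genes are uncertain. All else was computed here. Counts were filtered with filterByExpr (minimum count 10, minimum total 15), scaled by TMM and fitted in edgeR 4.0.16 (R 4.3.3) with 1 term per group over all 18 libraries; quasi-likelihood F-tests were adjusted over the 15482 genes by the Benjamini-Hochberg method, and the threshold for a call was 0.05 on the adjusted p. Total counts per library were between 16121743 and 24586404 reads.

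The members, the 52 gene lists and the rule for named genes were chosen with earlier results of these data known, so no list was tested as a set. The rule names Cip2a and any gene called, then 12 genes on each side, as given in the text; within a list, examples come from its first 2 tested members and the 2 with the smallest p, of which some are not reported here. A list score is the mean log2 CPM (prior count 2) of its members, centred over the 6 libraries. Alternatives used RLE size factors, no filter, a minimum count of 30, DESeq2 1.42.0, limma 3.58.1 voom with and without sample weights, robust spread, the 6 endpoint libraries alone, the replicate number as a block, each endpoint library left out and, added after seeing the data, WT untreated library 3 left out. The DESeq2 run took all genes with at least 1 read, without filterByExpr. The code was tested on simulated data. Promoters are RefSeq windows of GRCm38.p6 (mm10), matched by gene ID for 11235 of the genes tested. The labels do not state that the replicates of a group are separate mice, so p-values measure the spread between these samples, which may be technical in part.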

Additional observations from a re-analysis of the deposited data

How the results depend on the processing

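At the endpoint edgeR called 1 gene, and the count was 83 with DESeq2, 0 with limma voom and sample weights, 0 with the 6 endpoint libraries alone and between 0 and 6 with 1 endpoint library left out. The 1659 genes at an unadjusted p under 0.05 became 361 with sample weights, 417 with the 6 endpoint libraries alone and between 566 and 4210 with 1 library left out, the fewest without WT library 1 and the most without WT library 2. Their split into higher and lower, 627 and 1032 in the fit reported, was 698 and 457 with limma voom. For the difference of the genotype effect at the endpoint from the mean of the other conditions, which the 6 endpoint libraries alone cannot give, 0 genes were called with edgeR, 174 with DESeq2 and between 0 and 2 with 1 library left out. The log2 fold change of Cip2a was -6.58 with sample weights (adjusted p = 0.672) and -8.96 with the 6 libraries alone (adjusted p = 0.968), neither of them called, and between -9.32 and -8.53 with 1 library left out; as Cip2a-/- glands had 0 reads, these fits are no bounds. Without WT untreated library 3, edgeR called 1 gene at the endpoint and 0 for the difference between conditions, and Cip2a had an adjusted p of 0.0487. The cause of these differences was not tested.

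Replicate numbers of the 2 genotypes did not pair the libraries, with correlations of deviations of 0.113, -0.037 and -0.135 for numbers 1, 2 and 3. With the replicate number as a block, 1 gene was called and 1576 were at an unadjusted p under 0.05, 813 higher and 763 lower.

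With sample weights these log2 fold changes turned round: Atm 0.14, Mdm2 0.12, Ncl 0.013, Esr1 0.0887, Ucp1 2.58, Col1a1 -0.35, Pecam1 -0.029, Alas2 -0.34, Il1b 0.29 and the brown fat median 0.15. With 1 endpoint library left out, the range crossed 0 for Mki67 (-1.43 to 0.20), Atm (-0.52 to 0.14), Cdkn1a (-0.15 to 1.52), Mdm2 (-0.20 to 0.073), Myc (-0.66 to 0.33), Ncl (-0.19 to 0.13), Esr1 (-0.35 to 0.32), Pgr (-0.22 to 5.29), Csn1s1 (-4.07 to 6.53), Ucp1 (-8.58 to 4.42), Col1a1 (-0.67 to 1.78), Pecam1 (-0.034 to 0.80), Wnt4 (-0.60 to 1.97), S100a8 (-1.52 to 2.41), Alas2 (-1.41 to 2.97), Isg15 (-0.67 to 1.44), Ifit1 (-0.064 to 2.01), Il1b (-0.92 to 0.70), Ahrr (-0.19 to 0.48) and Adipoq (-0.37 to 1.07). The medians of 20 of the 52 lists crossed 0 in the same way; among those larger in size than the spread of the score between libraries were brown fat (-3.03 to 0.62), T cells (-4.38 to 0.030), NK and cytotoxic cells (-1.94 to 0.16) and immediate early genes (-0.37 to 0.041). Of the 105 genes followed, the other 85 kept their direction in each alternative run. The 24 named genes are among these 85. Their rule already required no overlap and a small p without each endpoint library. For them, and in part for list members picked by a small p, the kept direction follows from the picking. Depth limits the low genes, such as Dzip3 with 16 to 86 reads a library. The floor given for Cip2a covers counting error only.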
